A study of Mus musculus with 19 samples.

Results

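The clustered protocadherin locus on mouse chromosome 18 holds 3 gene clusters, alpha, beta and gamma. The 8 genes described here are a chosen set from the locus that lies outside the run *Pcdhb2* to *Pcdhb22*. They are the alpha unit, the gamma unit, *Pcdhb1*, the noncoding genes *Gm10545*, *Gm10544* and *3222401L13Rik*, and the neighbours *Taf7* and *Slc25a2*. They were taken by identifier or symbol from the 41388 genes of the count files, and they were proposed with the effect of the *Wiz* mutation in view, so that effect is given below as a description without a test. Polyadenylated RNA was sequenced from 16 FVB samples of 6 groups. These were whole brains of male embryos at 13.5 days post coitum (E13.5; 3 *Wiz*+/+ and 3 *Wiz* MommeD30/+), whole brains of female E13.5 embryos (2 and 2), and adult cerebellums at 56 days post partum (3 and 3), from males per the study's methods. MommeD30 is a single allele of *Wiz* from an ENU mutagenesis screen, and per the study's methods it was kept by crossing to Line3, an FVB/NJ strain homozygous for a GFP transgene under a human alpha-globin promoter.

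Clustered protocadherins are cell surface adhesion molecules of neurons. In the alpha and gamma clusters each variable first exon has its own promoter and is spliced to constant exons shared by the whole cluster, whereas each beta gene is a single exon. The choice of promoter is tied to chromatin loops held by CTCF and cohesin, and Wiz is a zinc finger protein that works with the histone methyltransferases G9a and GLP. The mix of protocadherins on a neuron's surface helps its branches to tell self from non-self.

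Of the 14 alpha genes and 22 gamma genes of the GENCODE M21 annotation, the count files held 1 identifier each, against all 22 beta genes. M21 names these identifiers *Pcdha11* (ENSMUSG00000007440) and *Pcdhgc4* (ENSMUSG00000023036). That each stands for its whole cluster, as the words alpha unit and gamma unit are used here, is inferred from the identifiers that the files lack, and the annotation release used by the authors is not given in the sources used here. Choice among first exons within a cluster could therefore not be seen, and levels of the units are not compared per length.

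On GRCm38 (mm10) chromosome 18, M21 places the alpha identifier at 37005203 to 37187657 on the plus strand. 2 noncoding genes lie inside it on the minus strand. *Gm10545* (37008868 to 37020679) is annotated as antisense, and 3017 of its 4969 exon bases overlap exons on the opposite strand. *Gm10544* (37159854 to 37178522) is annotated as a processed transcript, with such overlap in 852 of 5051 exon bases. The strand setting of the counting is not given, so reads of these genes and of the alpha genes they overlap cannot be told apart there. *Pcdhb1* (37264938 to 37267525, plus strand) opens the beta cluster.

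Downstream of *Pcdhb22*, after 112897 bases, lie *Slc25a2* (37637377 to 37638745) and *Taf7* (37640491 to 37644204), both on the minus strand. *3222401L13Rik* (37655451 to 37661742, plus strand) is annotated as a lincRNA of 6292 exon bases, none shared with another gene. It starts 11246 bases beyond *Taf7* and ends 50 bases before *Pcdhga1*, the first gamma gene. M21 places the gamma identifier at 37815079 to 37841873 on the plus strand.

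Total counts ran from 16386029 to 50459755 per sample, with the smallest library that of the second male *Wiz*+/+ brain. Levels are given as CPM, read counts divided by a library size that was scaled by the TMM method over all 16 samples, and 3 counts are worth 0.0568 to 0.173 CPM depending on the library. 7 of the 8 genes passed the filter on low counts, and *Pcdhb1* did not. *Wiz* itself checks the genotype labels. Its level was 174, 189 and 178 CPM in the *Wiz*+/+ male brains and 112, 119 and 116 CPM in the *Wiz* MommeD30/+ male brains. In female brains it was 177 and 184 CPM against 123.2 and 120.8 CPM. In cerebellum it was 105, 104 and 105 CPM against 72.0, 72.2 and 75.0 CPM. *Wiz* was thus lower in every heterozygous sample of each tissue, at 64.3%, 67.6% and 69.7% of the *Wiz*+/+ mean in male brain, female brain and cerebellum.

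Among the protein-coding units, the alpha unit was lower in heterozygous embryonic brains, and its levels in cerebellum overlapped between genotypes. In male brains it measured 140.0, 116 and 119 CPM in *Wiz*+/+ and 98.6, 102 and 114 CPM in *Wiz* MommeD30/+. The female brains gave 115 and 138 CPM against 94.7 and 97.7 CPM. The genotypes did not overlap in either sex, although the highest heterozygous male brain lay close to the lowest *Wiz*+/+ male brain. The log2 fold change was -0.26 ± 0.069 (SE) in male and -0.41 ± 0.087 in female brain, or 83.9% and 75.8% of the *Wiz*+/+ mean. In these bulk samples, fewer cells that express a gene and less RNA per cell cannot be told apart.

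In cerebellum the alpha unit measured 174, 174 and 179 CPM in *Wiz*+/+ and 169.6, 172 and 184 CPM in *Wiz* MommeD30/+. The genotypes overlapped, with a log2 fold change of 0.014 ± 0.030. The alpha unit was thus lower in heterozygotes in male E13.5 brain only, and the log2 fold changes, cerebellum minus brain, differed by 0.27 ± 0.086. In each sex 1 library set much of the size. For male brain the log2 fold change was -0.17 without the first *Wiz*+/+ brain, and for female brain it was -0.54 without the first *Wiz*+/+ brain and -0.26 without the second.

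The gamma unit showed little difference between genotypes. The male *Wiz*+/+ brains measured 528, 528 and 498 CPM and the heterozygous male brains 505, 512 and 521 CPM. The 4 female brains lay between 522 and 532 CPM, and the cerebellums at 764, 769.8 and 758 CPM in *Wiz*+/+ and 754, 772 and 791 CPM in *Wiz* MommeD30/+. Genotypes overlapped in male brain and cerebellum, and in female brain the lower *Wiz*+/+ sample (525 CPM) lay just above the higher heterozygous one (523 CPM). Its log2 fold changes were -0.015 ± 0.034, -0.025 ± 0.052 and 0.034 ± 0.026 in male brain, female brain and cerebellum. Each of these is within 2 standard errors of 0, and for male brain the sign turned (0.0020) without the second *Wiz*+/+ library.

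The balance between the clusters within a library differed with genotype, a comparison that does not depend on scaling between samples. Of all counts on the alpha unit, *Pcdhb2* to *Pcdhb22* and the gamma unit together, the gamma unit took 59.7 to 62.5% in the *Wiz*+/+ and 67.1 to 68.9% in the heterozygous male brains. In female brains it took 58.3 and 60.5% against 69.1 and 70.2%. In cerebellum it took 65.6 to 66.0% against 67.4 to 67.7%. The beta genes took the lower share in heterozygous samples, 16.8 to 19.8% against 23.9 to 25.1% for male brain, 17.1 and 17.98% against 26.2 and 26.6% for female brain, and 16.9 to 17.4% against 18.9 to 19.0% for cerebellum. These shares show unequal change of the clusters and not which of them changed in amount.

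*Pcdhb1*, the first beta gene, was close to the limit of detection. Its 8 counts in the male *Wiz*+/+ brains were 2, 2 and 4 by sample, against 0, 0 and 1 in the heterozygous male brains. The female brains gave 3 and 4 counts against 0 and 1, and the cerebellums 8, 9 and 6 counts against 3, 5 and 6. The heterozygous level, from summed counts scaled by library, was 0.109 of the *Wiz*+/+ level in male brain (95% exact conditional interval 0.00246 to 0.814), 0.142 of it in female brain (0.00316 to 1.11) and 0.617 of it in cerebellum (0.293 to 1.25). The intervals cover counting error only, leave out the spread between animals and are no test of genotype. The study reports no change in expression of *Pcdhb1* in the tissues it tested.

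Among the noncoding genes, *3222401L13Rik* lay farthest below its *Wiz*+/+ level of the 7 genes fitted, in each tissue. It measured 2.97, 3.81 and 3.53 CPM in the male *Wiz*+/+ brains and 1.48, 1.46 and 1.10 CPM in the heterozygous male brains. The female brains gave 3.52 and 3.55 CPM against 1.04 and 1.31 CPM. The cerebellums gave 4.51, 4.95 and 4.83 CPM against 2.78, 3.46 and 3.23 CPM. No heterozygous sample reached the lowest *Wiz*+/+ sample of its tissue and sex. The heterozygous mean was 39.2%, 33.3% and 66.3% of the *Wiz*+/+ mean in male brain, female brain and cerebellum, with log2 fold changes of -1.301 ± 0.15, -1.59 ± 0.18 and -0.57 ± 0.12. The effect in male cerebellum was smaller than in male brain by 0.72 ± 0.19 on the log2 scale. None of the 7 genes was past the threshold for this difference of effects by edgeR (2 at an unadjusted p under 0.05), where 0.173% of all genes tested were. DESeq2 gave an adjusted p for 4 of the 7, with none past the threshold. With no filter on low counts, *3222401L13Rik* came just past the threshold by edgeR (difference 0.70). Over the alternatives run, its adjusted p (edgeR or DESeq2) ranged from 0.0498 to 0.325. Since the genes were proposed with the genotype effect in view, nothing is read from this call. The values of *3222401L13Rik* rest on 40 to 175 counts per sample.

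From the highest mean to the lowest, the level of *3222401L13Rik* was 4.76 ± 0.23 CPM (SD, n = 3) in *Wiz*+/+ cerebellum, 3.53 ± 0.027 (n = 2) in *Wiz*+/+ female brain, 3.44 ± 0.42 (n = 3) in *Wiz*+/+ male brain, 3.16 ± 0.35 (n = 3) in heterozygous cerebellum, 1.35 ± 0.21 (n = 3) in heterozygous male brain and 1.18 ± 0.19 (n = 2) in heterozygous female brain. Samples of *Wiz*+/+ female and male brain overlapped, as did those of *Wiz*+/+ male brain and heterozygous cerebellum, and those of heterozygous male and female brain. Per kilobase of exon, *Wiz*+/+ male brain held 0.546 CPM of this gene. The levels of the 21 other beta genes there ran from 0.478 to 6.14 CPM per kilobase, with a median of 1.83. The lincRNA thus lay near the lower end of their range in this group. In each other group it lay below the lowest of these beta genes. It had 0.757 against 1.08 CPM per kilobase in *Wiz*+/+ cerebellum and 0.562 against 0.688 in *Wiz*+/+ female brain.

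The level of *3222401L13Rik* was also set against its neighbours in the same library. For each 1000 counts on *Pcdhb2* to *Pcdhb22* it had 13.8 to 18.9 counts in *Wiz*+/+ and 8.64 to 11.4 in heterozygous male brains. Female brains gave 14.7 and 15.5 against 8.20 and 9.64, and cerebellums 20.4 to 22.3 against 14.6 to 17.4. For each 1000 counts on the gamma unit it had 5.63 to 7.21 against 2.12 to 2.93 counts for male brain, 6.68 and 6.69 against 1.99 and 2.51 for female brain, and 5.90 to 6.43 against 3.68 to 4.48 for cerebellum. Both ratios were lower in every heterozygous sample than in every *Wiz*+/+ sample of that tissue and sex, so the lincRNA differed between genotypes by more than the summed beta genes did. Single beta genes differed as far in cerebellum: *Pcdhb8* (log2 fold change -0.77), *Pcdhb13* (-0.72), *Pcdhb14* (-0.66) and *Pcdhb2* (-0.58). The other beta genes there differed by less. In brain none was as low as the lincRNA, the lowest being *Pcdhb18* in males (-0.94) and *Pcdhb14* in females (-1.46).

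**Figure D1:**
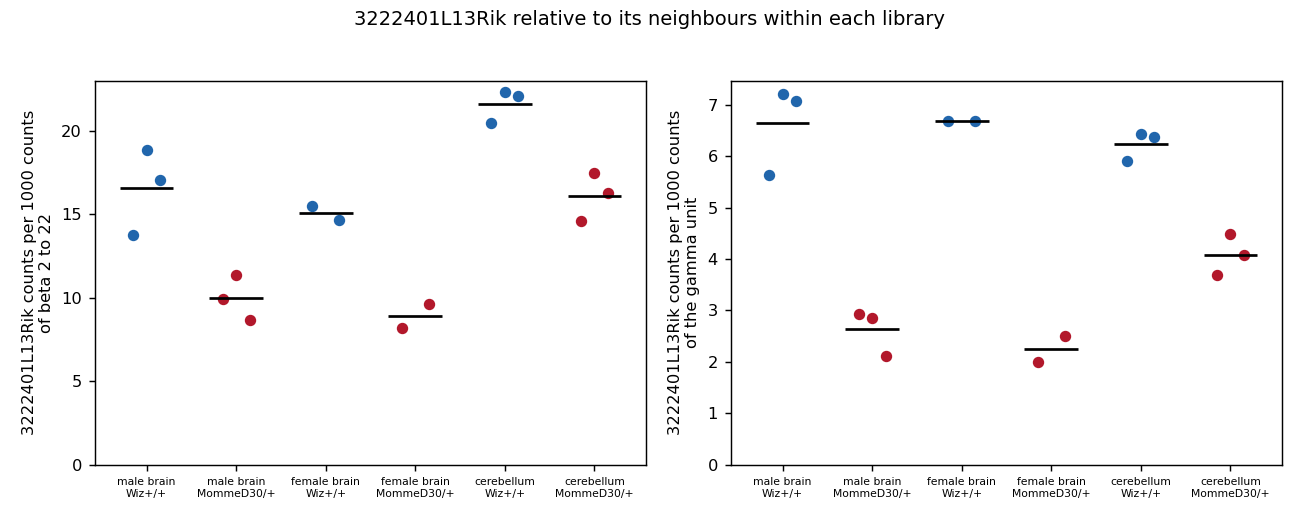
Counts on *3222401L13Rik* per 1000 counts on *Pcdhb2* to *Pcdhb22* (left) and on the gamma unit (right) in each library (vertical axes, linear from 0), by group (horizontal axes). Points are samples (blue *Wiz*+/+, red *Wiz* MommeD30/+) and lines are group means; heterozygous samples lie below the *Wiz*+/+ samples of the same tissue and sex in both panels.

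*Gm10545*, antisense within the alpha cluster, was lower in heterozygous brains of both sexes, at low counts. It measured 1.53, 0.980 and 1.10 CPM in *Wiz*+/+ and 0.657, 0.603 and 0.856 CPM in heterozygous male brains. Female brains gave 0.904 and 1.05 CPM against 0.770 and 0.575 CPM. Genotypes did not overlap in brain of either sex, with log2 fold changes of -0.86 ± 0.22 and -0.54 ± 0.26. In cerebellum they overlapped, at 0.469, 0.665 and 0.787 CPM against 0.488, 0.552 and 0.359 CPM (log2 fold change -0.44 ± 0.31, from 10 to 22 counts per sample).

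*Gm10544*, at the other end of the alpha unit, had no lower level in heterozygous samples of any tissue. It measured 1.42, 1.499 and 0.993 CPM against 1.62, 1.60 and 1.38 CPM in male brain, and 0.944 and 1.48 CPM against 1.08 and 1.40 CPM in female brain. In cerebellum it measured 0.252, 0.369 and 0.250 CPM in *Wiz*+/+ and 0.375, 0.552 and 0.503 CPM in *Wiz* MommeD30/+. The cerebellum groups did not overlap, but the highest *Wiz*+/+ and the lowest heterozygous sample had 10 counts each. The log2 fold changes were 0.26 ± 0.18, 0.029 ± 0.28 and 0.73 ± 0.34 in male brain, female brain and cerebellum. The female value ran from -0.27 without the first to 0.39 without the second *Wiz*+/+ library.

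The protein-coding neighbours between the beta and gamma clusters showed no such difference. *Taf7* encodes a subunit of TFIID, the general transcription factor that recognises promoters. It lay between 27.99 and 32.2 CPM in all 10 brains and between 17.0 and 20.6 CPM in all 6 cerebellums, with genotypes overlapping in each and log2 fold changes of -0.027 ± 0.048, -0.070 ± 0.079 and -0.089 ± 0.062. *Slc25a2*, which encodes a mitochondrial carrier of ornithine, lay between 0.222 and 0.467 CPM in all 16 samples, from 6 to 18 counts. Its log2 fold changes were 0.0030 ± 0.31, -0.058 ± 0.36 and 0.28 ± 0.35, too imprecise at this depth to show a difference of the size seen for the alpha unit.

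**Figure D2:**
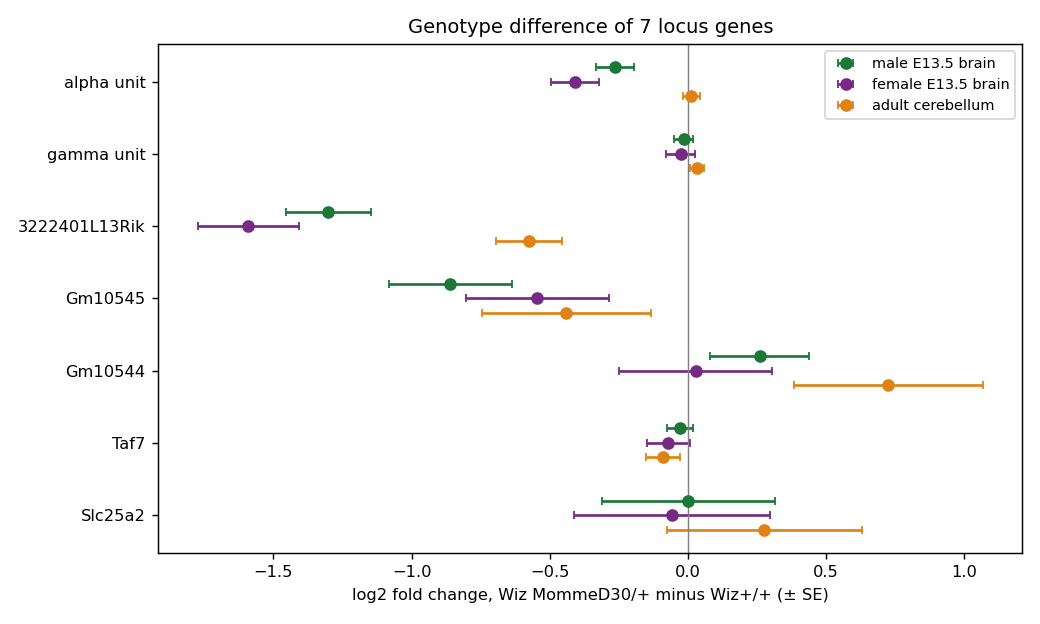
The log2 fold change of *Wiz* MommeD30/+ against *Wiz*+/+ (horizontal axis; points are estimates and bars are ± 1 SE) for the 7 genes that passed the filter (vertical axis), in male E13.5 brain, female E13.5 brain and adult cerebellum. *3222401L13Rik* lies farthest below 0 in each tissue, the alpha unit lies below 0 in both embryonic brain comparisons and at 0.014 in cerebellum, and the gamma unit and *Taf7* lie within 0.1 of 0 in all 3.

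A gene was counted as past the threshold where the adjusted p of edgeR's quasi-likelihood test was at most 0.05 and the fold under 0.7 or over 1.3. By this rule 1 of the 7 genes fitted, *3222401L13Rik*, was past the threshold in male brain, female brain and cerebellum alike, where 0.184%, 0.111% and 0.832% of all genes tested were. The study already lists this gene as lower in heterozygous E13.5 brain of both sexes. Across genotypes, samples of male brain did not overlap for 3 of 7 genes, those of female brain for 4 and those of cerebellum for 2. The same held for 12.3%, 36.3% and 22.6% of all genes tested. Since the genes were proposed with this contrast in view, nothing is read from these counts. The count of 1 in female brain rested on both heterozygous libraries, since without either of them 0 genes of all those tested were past the threshold. In cerebellum the gene was no longer past the threshold without the third *Wiz*+/+ or the first heterozygous library.

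Along the chromosome, the genotype difference of the neighbouring beta genes is the setting for these values. The lower level of *Pcdhb2* to *Pcdhb22* in heterozygotes was known from earlier results of these data. Of these 21 genes, 12 were past the threshold by edgeR in male brain and 5 each in female brain and cerebellum, all lower. Of all genes tested, 0.184%, 0.111% and 0.832% were past it. DESeq2 put 14, 13 and 5 of the 21 past it, so the count in female brain depended on the tool. The median log2 fold changes of the 21 were -0.71, -0.95 and -0.16. *Pcdhb22*, the last beta gene before *Slc25a2*, had -0.63 ± 0.10, -0.82 ± 0.097 and 0.14 ± 0.072. *3222401L13Rik* lay below 0 again on the far side of *Slc25a2* and *Taf7*, whose log2 fold changes ran from -0.089 to 0.28. Inside the gamma region, the minus-strand noncoding gene *Gm26672*, which was looked at after its values were seen, had -0.29 ± 0.062, -0.50 ± 0.090 and 0.026 ± 0.075. Its samples ran from 16.6 to 18.1 CPM in the *Wiz*+/+ and from 12.2 to 14.5 CPM in the heterozygous brains, and from 12.6 to 14.8 CPM in all cerebellums. It was not past the threshold in any of the 3 comparisons by edgeR, although the study lists it among the genes lower in heterozygous female brain.

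**Figure D3:**
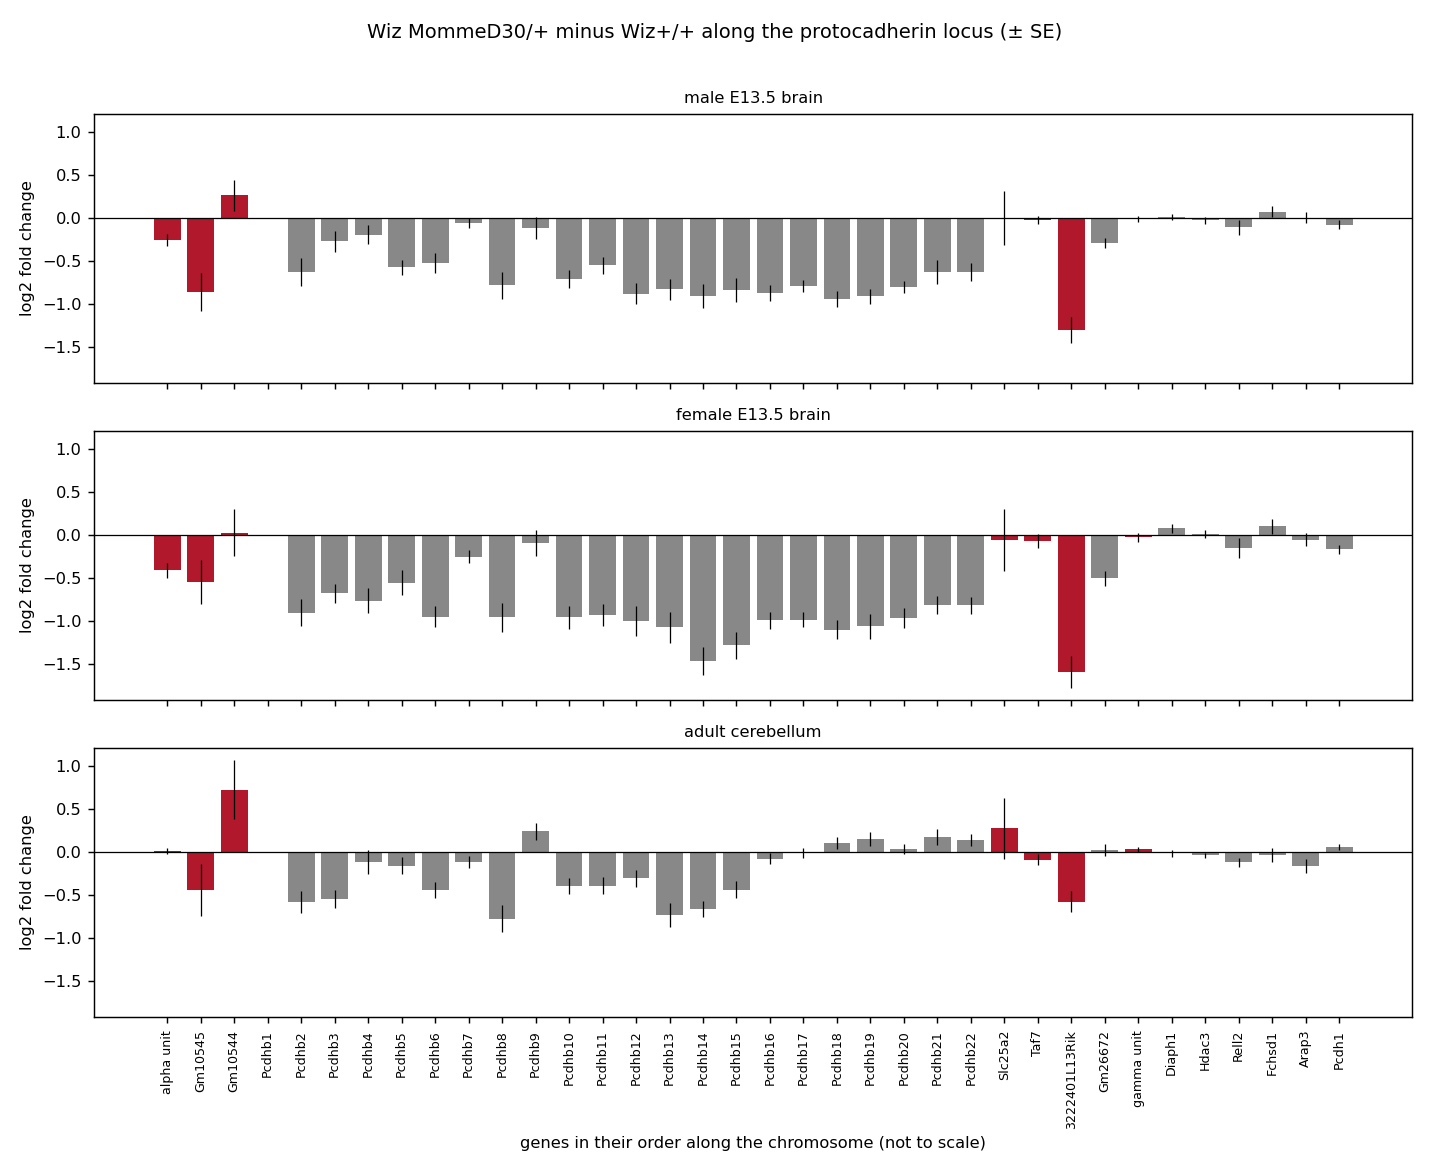
The log2 fold change of *Wiz* MommeD30/+ against *Wiz*+/+ (vertical axes; bars are estimates and thin lines ± 1 SE) for genes of the locus in their order along chromosome 18 (horizontal axis, not to scale), in male E13.5 brain, female E13.5 brain and adult cerebellum. Red bars are genes of the set described here and grey bars are other genes, and *Pcdhb1* has no bar because it did not pass the filter. *3222401L13Rik* stands below 0 in every panel, with *Slc25a2* and *Taf7* between it and the beta genes.

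Apart from *Wiz*, genes around the locus and genes that act on it showed no difference of the size seen for *3222401L13Rik*. The lists were the 12 flanking genes, 11 genes of CTCF, cohesin and its loaders and release factors, 15 genes of heterochromatic silencing including *Wiz*, 16 genes of protocadherin signalling, 6 of protocadherin proteolysis, 14 of TFIID and its relatives and 2 further ornithine carriers. Without *Wiz*, 0 of 74 tested genes of these lists were past the threshold in male brain, female brain or cerebellum by edgeR. With *Wiz* included, DESeq2 put 1 gene past it in brains of either sex and 0 in cerebellum. By edgeR at an unadjusted p under 0.05 there were 4, 5 and 14 of the 74, where 8.45%, 6.4% and 19.9% of all genes tested were. *Wiz* was past the threshold in brains of both sexes and just short of the fold limit in cerebellum (fold 0.706).

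The genes with the smallest p in these lists changed by up to 0.30 on the log2 scale, near the alpha unit's size in male brain (-0.26 ± 0.069). In male brain they were *Lrif1* (log2 fold change -0.29 ± 0.061), a partner of HP1 proteins and Smchd1, the DNA methyltransferase *Dnmt3b* (0.30 ± 0.078) and the Setdb1 partner *Atf7ip* (-0.087 ± 0.032). In female brain they were *Lrif1* (-0.28 ± 0.085), *Pcdh1* (-0.16 ± 0.052), a non-clustered protocadherin at the edge of the locus, and the cohesin regulator *Pds5a* (0.14 ± 0.048). In cerebellum they were *Marcks* (0.13 ± 0.030), which binds membranes and actin, *Zfp644* (0.15 ± 0.035), a zinc finger partner of Wiz, and the cohesin subunit *Smc3* (0.14 ± 0.034). The edgeR adjusted p of the cerebellum genes was 0.0167, 0.0189 and 0.0202, but their folds were inside the limits, and no adjusted p of the brain genes was under 0.122.

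Cell type markers were read beside these differences. In cerebellum 4 of 5 tested blood genes (haemoglobins and *Alas2*) were past the threshold and higher in heterozygotes by edgeR, and DESeq2 put 1 past it. The summed blood markers reached 283 to 522 CPM in heterozygous against 160 to 249.5 CPM in *Wiz*+/+ cerebellums. The part of blood RNA in the cerebellum values was not tested. No other marker list (Purkinje, granule, astrocyte, oligodendrocyte, progenitor, young neuron, microglia, endothelium or choroid plexus) had a gene past the threshold between genotypes in any tissue by edgeR, with 13 of 43, 10 of 44 and 19 of 45 tested genes at an unadjusted p under 0.05 in male brain, female brain and cerebellum. All 3 are above the shares of all genes just given. The summed progenitor markers did not overlap between genotypes, at 1118 to 1159 CPM in heterozygous against 1009.8 to 1116 CPM in *Wiz*+/+ male brains, 1084 and 1095 against 805 and 966 CPM for female brain, and 89.6 to 102 against 109.8 to 121 CPM for cerebellum, higher in the heterozygous brains and lower in the heterozygous cerebellums. The summed young neuron markers were lower in heterozygotes without overlap for female brain (3950 and 4070 against 4072 and 4271 CPM) and cerebellum (648 to 702 against 716 to 747 CPM), and overlapped for male brain (3936 to 4043 against 3987 to 4167 CPM). Not every marker followed its sum. In male brain the progenitor markers *Eomes* (log2 fold change -0.50 ± 0.17) and *Neurog2* (-0.024 ± 0.054) were lower, while *Nes*, *Hes5*, *Sox2* and *Mki67* were higher. In female brain the young neuron markers *Tbr1* (0.30 ± 0.21) and *Neurod6* (0.051 ± 0.26) were higher, while *Dcx*, *Tubb3* and *Stmn2* were lower. The part of these markers in the genotype differences was not tested. DESeq2 put 1 gene of these marker lists, a Purkinje marker in male brain, past the threshold. In embryonic brain no blood gene was past it, and summed blood markers overlapped between genotypes in males, at 655 to 912 against 789 to 1040 CPM. In females they were 1215 and 1252 against 1126 and 1154 CPM, lower in both heterozygous brains.

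The tissue comparison was not used to choose the genes, and it asks how the locus differs between adult cerebellum and E13.5 brain in *Wiz*+/+ males. The alpha unit, the gamma unit and *3222401L13Rik* were higher in cerebellum, *Gm10545*, *Gm10544* and *Taf7* were lower, and *Slc25a2* did not pass the test. The means were 176 against 125 CPM for the alpha unit, 764 against 518 CPM for the gamma unit and 4.76 against 3.44 CPM for the lincRNA. Log2 fold changes were 0.49 ± 0.059 (adjusted p = 1.6e-06, edgeR), 0.56 ± 0.037 (adjusted p = 1.1e-09, edgeR) and 0.51 ± 0.12 (adjusted p = 0.00119, edgeR). Samples of the tissues did not overlap for any of these 3 genes, as was so for 87.2% of all genes tested.

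*Gm10544* differed most, with a mean of 0.291 CPM in cerebellum and 1.304 CPM in brain, 4.49 times as high in brain (log2 fold change -2.13 ± 0.28, adjusted p = 4.7e-06, edgeR). *Gm10545* had 0.640 against 1.21 CPM (-0.99 ± 0.25, adjusted p = 0.00211, edgeR). Both of these minus-strand genes were thus lower in the tissue where the alpha unit that holds them was higher. *Taf7* had 19.4 against 31.0 CPM (-0.67 ± 0.060, adjusted p = 4.6e-08, edgeR), and *Slc25a2* 0.325 against 0.334 CPM (0.11 ± 0.36, adjusted p = 0.780, edgeR). The 6 of 7 genes past the threshold, 3 higher and 3 lower in cerebellum, stand beside 69.3% of all genes tested, 36.4% higher and 32.9% lower. Tissue and age cannot be told apart here, and these samples are also the *Wiz*+/+ samples of the genotype comparisons.

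Several of these calls depended on a setting. With samples scaled by total counts alone, which shifted the median log2 fold change of all genes from -0.015 to -0.23, the alpha unit (0.28), the gamma unit (0.35) and *3222401L13Rik* (0.30) remained higher in cerebellum but inside the fold limit of 1.3. Between heterozygous samples, the tissue difference was 1.24 for *3222401L13Rik* and 0.77 for the alpha unit, over 1.5 times that between *Wiz*+/+ samples, and *Gm10545* remained lower in cerebellum (-0.56) but was not past the threshold (adjusted p = 0.0661, edgeR).

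*Pcdhb1* had a mean of 0.279 CPM in *Wiz*+/+ cerebellum and 0.0878 CPM in *Wiz*+/+ male brain. All 3 cerebellums lay above all 3 brains, and the two-sided exact permutation test of the difference of 0.191 CPM gave p = 0.1, the smallest that 3 against 3 samples allow. The gamma unit had 4.23 to 4.41 counts for each count of the alpha unit in *Wiz*+/+ cerebellum and 3.77 to 4.57 in *Wiz*+/+ male brain. The tissues overlapped (log2 difference 0.061, two-sided exact permutation test p = 0.6), so both units were higher in cerebellum by an amount that did not differ beyond the spread of these samples. In heterozygous brains, where the alpha unit was lower, the ratio was 4.58 to 5.13 in males and 5.36 and 5.51 in females.

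Other genes of the lists differed between tissues in both directions, and their counts stand beside 36.4% of all genes tested that were higher and 32.9% that were lower in cerebellum. Of the 21 other beta genes 8 were higher in cerebellum, among them *Pcdhb14* (log2 fold change 1.69), and 2 were lower, *Pcdhb19* (-0.94) and *Pcdhb21* (-0.85). 11 of 15 silencing genes were lower in cerebellum and none was higher, including *Wiz* (-0.78), *Ehmt1* (-1.41), which encodes GLP, and *Dnmt3b* (-1.81). 4 of 11 looping genes, a share close to that of all genes, were lower, the cohesin subunit *Smc3* (-0.83), the loader *Nipbl* (-0.89) and the regulators *Pds5a* (-0.97) and *Pds5b* (-0.65), and none was higher. Of 13 tested TFIID genes, partners of Taf7, 6 were lower and none higher, among them *Taf5* (-1.11) and *Taf2* (-0.78). The 16 signalling genes divided into 4 lower, led by *Marcks* (-2.96), and 5 higher, led by *Ret* (1.86). All 4 of the lists of Purkinje, granule, astrocyte and oligodendrocyte markers had 5 of 5 genes higher in cerebellum, and 5 of 6 progenitor and 4 of 5 young neuron markers were lower. Of the remaining lists, 2 flanking genes were lower and 3 higher, 2 of the 6 proteolysis genes were lower and 2 higher, and both ornithine carriers were higher.

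Sex was the other comparison that did not choose the genes. Over all 10 E13.5 brains, with genotype as a covariate, 0 of 7 genes were past the threshold between female and male brain by edgeR, where 1.46% of all genes tested were, and none had an unadjusted p under 0.05. DESeq2 gave an adjusted p for 3 of the 7, with none past the threshold. *Taf7* came closest (log2 fold change of female minus male -0.077 ± 0.041, adjusted p = 0.241, edgeR). The differences of the best measured genes were small, with -0.058 ± 0.065 for the alpha unit and 0.021 ± 0.026 for the gamma unit, while *3222401L13Rik* had -0.043 ± 0.12. *Gm10545* (-0.24 ± 0.17), *Gm10544* (-0.21 ± 0.16) and *Slc25a2* (0.045 ± 0.22) had wider errors. Of the 21 other beta genes 0 were past the threshold by edgeR or DESeq2, with 5 at an unadjusted p under 0.05.

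**Figure D4:**
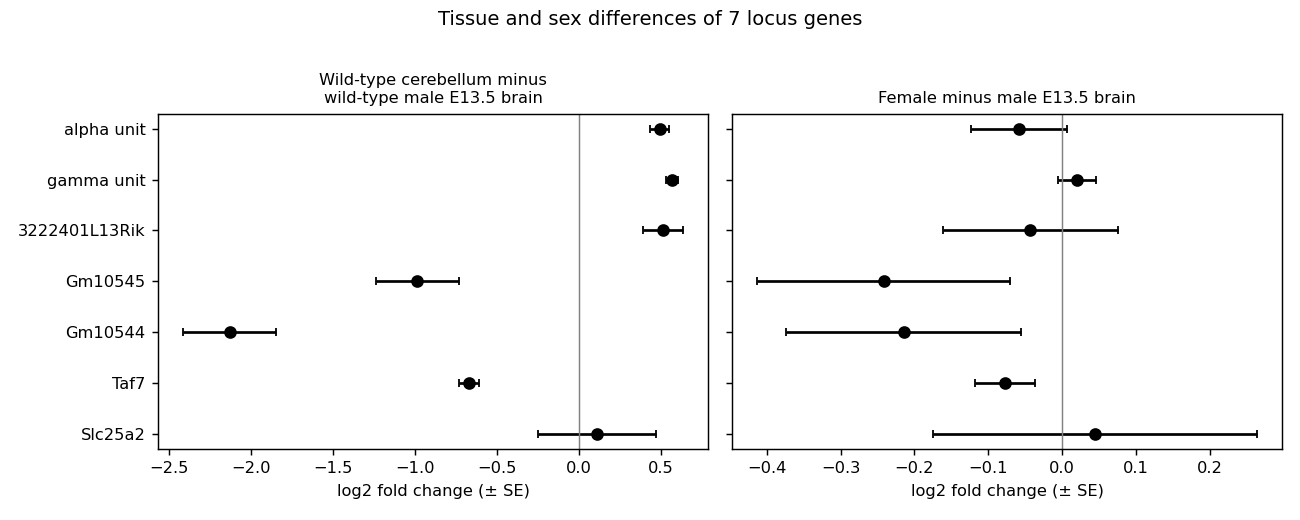
The log2 fold change (horizontal axes; points are estimates and bars ± 1 SE) of 7 locus genes (vertical axis) between *Wiz*+/+ cerebellum and *Wiz*+/+ male E13.5 brain (left) and between female and male E13.5 brain (right, on a narrower scale). In the left panel 3 genes lie above 0 and 3 below it, past the threshold, with *Gm10544* lowest at -2.13, while in the right panel no gene lies farther than 0.25 from 0.

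The genes whose pattern over the 16 samples was most like that of each well measured gene were found from the root mean square (RMS) difference of log2 CPM, each gene centred on its own mean, among 17949 genes. For *3222401L13Rik* they were *Pcdhb15* (RMS difference 0.27), the pseudogene *2610005L07Rik* (0.28), whose counts are uncertain where it shares reads with its parent gene, and *Pcdhb12* (0.33), against an RMS of 0.73 for the lincRNA's own variation. *2610005L07Rik* had 70.6 CPM in *Wiz*+/+ and 40.0 CPM in heterozygous male brain on average, and 96.2 against 63.5 CPM in cerebellum. For the alpha unit they were *Prr18* (0.086), *Tmem150c* (0.088) and *Stum* (0.091). For the gamma unit, which varied mainly with tissue, they were *Tm9sf4* (0.034), *Ankrd46* (0.036) and *Tomm20* (0.036), and for *Taf7* they were *Cct8* (0.045), *Copb2* (0.053) and *Psmd6* (0.057). The samples share the tissue and genotype differences described above, so these are descriptions of likeness only.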

How the data were processed

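Samples were grouped by the genotype, tissue, age and sex in their labels. The files deposited by the authors give raw counts of reads for each Ensembl gene. Per the study's methods, single-end reads, of polyadenylated RNA per the labels, were mapped to mm10 with TopHat 2.0.11 and counted over exons with htseq-count 0.6.1. The counting mode, strand setting and annotation release are not given in the sources used here. Symbols and positions came from GENCODE M21, on the same build (GRCm38), which named 40254 of the 41388 identifiers. The 3 ChIP-seq samples were not analysed here.

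Every comparison used a fit to its own samples, across all genes, by edgeR 4.0.16 in R 4.3.3 (TMM scaling, filterByExpr with a minimum count of 10, quasi-likelihood test, Benjamini-Hochberg adjustment). A further fit of the male samples had a genotype by tissue term. The standard error is the size of the log2 fold change divided by the square root of F. Log2 CPM used a prior count of 2. *Pcdhb1* and the gamma to alpha ratio were compared by exact permutation tests. The fits were tested on simulated counts. Alternatives were other scalings, DESeq2 1.42.0, other filters, a replicate block, adjusted p alone, other samples and leaving out each replicate.

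Counts of replicates differed beyond sampling noise (chi-square over its degrees of freedom, 2.11 to 11.2). The labels do not say that they came from separate animals, but the study's methods call them biological replicates and sequenced each cerebellum on its own. The genes and lists were chosen with earlier results of these data known. For the beta list, genes past the threshold between genotypes were counted and only some genes were named. For the other lists the 3 genes with the smallest p per genotype comparison were named. In the tissue comparison only examples were named, a narrowing made after the values were seen, as was the choice of *Gm26672*.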

Additional observations from a re-analysis of the deposited data

Results flagged for a closer look

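Among the genes named here, 6 genes of the beta cluster had a genotype effect that differed between tissues, by the genotype by tissue term of edgeR over the 12 male samples. In male brain these genes were lower in heterozygotes, with log2 fold changes from -0.94 (*Pcdhb18*) to -0.63 (*Pcdhb22*). In cerebellum they ran from -0.074 (*Pcdhb16*) to 0.16 (*Pcdhb19*). The difference, cerebellum minus brain, was 0.80 ± 0.12 (SE) on the log2 scale for *Pcdhb16* (adjusted p = 0.00833, edgeR). It was 0.78 ± 0.085 for *Pcdhb17* (adjusted p = 0.000309, edgeR) and 1.05 ± 0.12 for *Pcdhb18* (adjusted p = 0.000309, edgeR). The same difference was 1.07 ± 0.13 for *Pcdhb19* (adjusted p = 0.000783, edgeR), 0.83 ± 0.091 for *Pcdhb20* (adjusted p = 0.000309, edgeR) and 0.77 ± 0.13 for *Pcdhb22* (adjusted p = 0.0173, edgeR). Of all genes tested in this comparison, 0.173% were past the threshold. The 6 genes lie at the end of the beta cluster nearest to *Slc25a2*, and beyond it *3222401L13Rik* had a difference of effects of 0.72 ± 0.19. The beta list was chosen with earlier results of these data known, including the lower level of its genes in heterozygotes. These values are therefore a description and not separate support for a genotype effect.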

How the results depend on the processing

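The count of all genes past the threshold varied with the settings. With no filter on low counts it was 175 in male brain, 211 in cerebellum and 174 for genotype by tissue. DESeq2 gave 32 in female brain, 75 in cerebellum, 101 for sex and 61 for genotype by tissue. Adjusted p alone gave 839 in cerebellum and 1974 for sex, an average count of at least 50 gave 139 for sex, and all E13.5 brains in one fit gave 61 for genotype. Leaving out each replicate gave 20 to 117 genes for male brain, 0 to 261 for female brain, 70 to 153 for cerebellum, 156 to 318 for sex and 12 to 73 for genotype by tissue. The highest of these counts came without the third heterozygous male brain (male brain, genotype by tissue) and without the first *Wiz*+/+ female brain (female brain). The cause was not tested. Samples with the same number did not deviate together (mean residual correlations -0.098, -0.065 and -0.047 for male brain, female brain and cerebellum). With a replicate block the counts were 3 in female brain, 60 for sex and 18 for genotype by tissue, and *3222401L13Rik* was no longer past the threshold in female brain, as also with no filter on low counts.

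The direction of the gamma to alpha ratio reversed between heterozygous samples (log2 difference -0.15) and without the first *Wiz*+/+ male brain (-0.010), and leaving out each replicate gave -0.010 to 0.13. With the replicate block it was 0.061 (two-sided exact permutation test by sign flips p = 0.75). The smallest p that this test allows is 0.25, so it could not have shown a difference. Differences that were not past the threshold also changed sign. *Slc25a2* did so between tissues with total counts alone (-0.097) and without the third *Wiz*+/+ cerebellum (-0.035) or the first *Wiz*+/+ male brain (-0.041; up to 0.32 without another replicate). Between sexes it did so with the replicate block (-0.0023) and without the first *Wiz*+/+ male (-0.027), first heterozygous male (-0.0044) or first *Wiz*+/+ female brain (-0.033; up to 0.12 without another replicate). Between *Wiz*+/+ brains only, the sex difference was 0.016 for the alpha unit and 0.065 for *3222401L13Rik*, which had -0.13 to 0.034 when each replicate was left out, above 0 without the first heterozygous female brain. Between genotypes, the log2 fold change also changed sign when a replicate was left out for *Slc25a2* in male (-0.16 to 0.17) and female brain (-0.22 to 0.14), for *Taf7* in male (up to 0.0041) and female brain (up to 0.014), and for the alpha unit in cerebellum (-0.0060 to 0.027). The direction of *3222401L13Rik* between genotypes was kept under every alternative run, at -1.43 to -1.19 for male brain, -1.77 to -1.43 for female brain and -0.64 to -0.50 for cerebellum. Depth limits *Pcdhb1*, *Slc25a2*, *Gm10545* and *Gm10544*.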
